A study of Mus musculus with 12 samples.

Results

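The comparison described here sets sensory neurons of tumor-bearing female mice (FT) against those of tumor-bearing male mice (MT), in 6 of the 12 RNA-seq libraries of the series and in the 21482 of 22609 counted genes that lie on autosomes. Genes on the X and Y chromosomes (1017) were left out. All mice were adult Balb/c athymic nude mice, a strain that lacks a thymus and therefore mature T cells. Both groups carried the same tumor: 350000 cells of HSC3, derived from a human squamous carcinoma of the mouth, were placed in the tongue on 1 side, and 0.5% WGA-488, a fluorescent lectin that nerve endings take up and carry back to the cell body, was injected into the tongue on day 13 (strength as in the sample labels; the study's methods give another). On day 15 the trigeminal ganglia of the tumor side were dissociated and the labelled cells were flow sorted. Each library pooled 4 ganglia from 4 mice, so that no value belongs to a single animal. The normal females (FN) and normal males (MN), with 3 libraries each of 4 ganglia from 2 mice, received no cells according to the sample labels, whereas the study's methods describe injected human normal oral keratinocytes. They enter here only for the spread between libraries and for a side by side reading.

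The trigeminal ganglion holds the cell bodies of the neurons that sense touch, temperature and pain in the face and mouth. Each cell body is wrapped by satellite glia, its axon by Schwann cells, and macrophages sit between these units. Macrophages and satellite glia are known to respond when the axon or the tissue it serves is injured. Sorting by a dye inside the neuron is meant to leave these cells behind.

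The libraries held 4592891 to 8098997 reads assigned to genes. FT2 had the fewest. Of its listed entries, 68.4% were of reads mapped to several places in the genome, against 52.6% in FT3 and 43.5 to 45.5% in the other 4. Such a read may be listed more than once. The 3 FT libraries were far less alike than the 3 MT libraries. FT1 differed by more than 2-fold from the MT mean at 4.06% of the 13344 autosomal genes tested, FT3 at 34.96% and FT2 at 51.1%, while each MT library differed from the mean of the other 2 at 2.51 to 7.17%. FT1 thus lay as close to the male libraries as they did to each other, and FT2 and FT3 stood apart. The part of depth and of multiply mapped reads in these differences was not tested.

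All 6 libraries had high levels of neuronal genes. Levels are given as CPM, the reads of a gene scaled to the reads assigned to genes in its library. Tubb3, the neuronal tubulin, stood at 3762, 1943 and 6006 CPM in FT1, FT2 and FT3 against 3994, 4272 and 3902 CPM in MT1, MT2 and MT3. Prph, the intermediate filament of small sensory neurons, stood at 3069.9, 1564 and 4289.5 CPM in FT1, FT2 and FT3 against 2641, 2874 and 2966 CPM in MT1, MT2 and MT3. In neither gene did FT lie apart from MT. Of the 36 sensory neuron identity genes tested none was at 0, and their summed level was 30230.2 to 39072 CPM in FT and 32671 to 36828 CPM in MT. Reads of genes typical of other ganglion cells were present as well. The summed level of 34 macrophage genes was 407 to 1238 CPM in FT and 344 to 731 CPM in MT, and that of 27 satellite glia genes was 7930.3 to 20562 CPM in FT and 4806 to 6059 CPM in MT. In a sorted bulk sample, more cells of a type and more RNA per cell cannot be told apart.

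In edgeR's quasi-likelihood test over all 13344 autosomal genes, none passed an adjusted p of 0.05 (0% called) and the lowest adjusted p was 0.238. At an unadjusted p under 0.05, 1607 genes (12%) passed, 1328 of them higher (9.95%) and 279 lower (2.09%) in FT. DESeq2 called 249 genes (1.87%) at an adjusted p under 0.05, all higher in FT, and limma-voom called none, with 1205 (9.03%) at an unadjusted p under 0.05. The criteria used in the study (unadjusted p under 0.05, fold change over 1.5 and a group mean over 5 RPKM, the CPM divided by exon length in kilobases) were met by 1088 genes (8.15%), 901 higher (6.75%) and 187 lower (1.4%) in FT. With limma-voom, which gives libraries that stand apart less weight, the split turned to 426 higher and 621 lower. In what follows, "met the criteria" refers to these unadjusted criteria in edgeR, and no gene named below had an adjusted p under 0.05 in that test. Of the 59 genes given with a fold change, 34 had an adjusted p under 0.05 in DESeq2 and 41 in edgeR without FT1, the FT library closest to MT. None did in limma-voom or in edgeR when any other single library was left out. Many of the 59 were chosen by fold or p in these same data, so these counts are no independent support. Fold changes are given with and without FT2, and without any other library whose removal moved the fold by over 1.5 times.

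Leaving out FT2 left 437 genes that met the criteria (3.23% of 13531 tested), 315 higher and 122 lower in FT. At an unadjusted p under 0.05 alone it left 785 (5.8%), 518 of them higher (3.83%). Of the genes that met the criteria without FT2, 204 also met them with FT2, which is 18.8% of the list with FT2 and 46.7% of the list without it. FT2 was more than 2 times every other tumor library at 536 of the 901 higher genes (59.5%), against 9.91% of all genes tested. The 3 FT libraries all lay above the 3 MT libraries at 1072 genes (8.03%) and all below at 1283 (9.61%). The count that met the criteria rested on single libraries in both directions: it was 2747 without FT1, 2170 without FN2, and 658, 532 and 652 without MT1, MT2 and MT3. Without FT1, 754 genes (5.55%) passed an adjusted p of 0.05 in edgeR. A covariate for the share of multiply mapped reads left 171 genes that met the criteria and 417 at an unadjusted p under 0.05. Of the 55 genes given with a fold change that had an unadjusted p under 0.05, 28 kept it with that covariate, 37 without FT2, 46 without FT3 and 47 to 49 without 1 MT library. An exact permutation test of 3 libraries against 3 cannot give a two-sided p below 0.1.

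**Figure D1:**
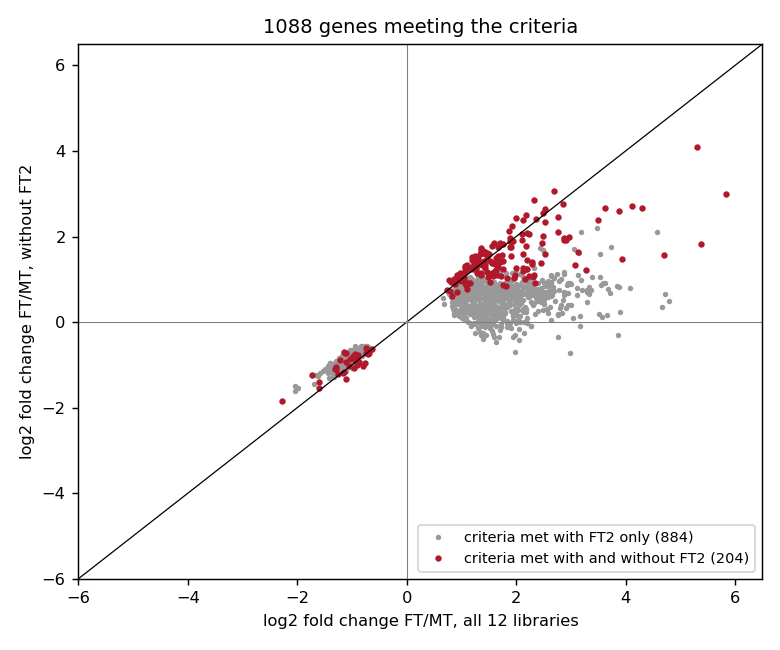
Log2 fold change FT over MT of the 1088 genes that met the criteria, from all 12 libraries on the x axis and from the 11 libraries without FT2 on the y axis, with the line of equal values. The 204 genes that met the criteria both times are red and the other 884 grey, and most of the points on the right lie below the line.

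Among macrophage genes, calls went in 1 direction. Of 32 tested, 13 were higher and 0 lower in FT at an unadjusted p under 0.05 and 19 passed in neither direction; without FT2, 12 were higher and 0 lower. Over all genes tested, 9.95% were higher with FT2 and 3.83% without it. The list's median log2 fold change was 1.60 with all libraries and 1.61 without FT2, against 0.07 and -0.02 over all genes tested. Tyrobp (chr7:31198807-31202596 in mm9, the build of the counts) encodes an adaptor through which myeloid receptors signal, and it stood at 7.13, 57.9 and 18.3 CPM in FT1, FT2 and FT3 against 0.880, 0.278 and 4.82 CPM in MT1, MT2 and MT3. Every FT library was above every MT library (log2 fold change 4.11 ± 0.96 (SE), 2.72 ± 0.84 without FT2 and 5.79 without MT3; unadjusted edgeR p 7.27e-04, adjusted p 0.294). Fcer1g, the shared gamma chain of Fc receptors, stood at 7.68, 44.2 and 22.2 CPM in FT against 0.755, 1.67 and 4.94 CPM in MT. Its groups did not overlap either (log2 fold change 3.61 ± 0.81 (SE), 2.67 ± 0.75 without FT2 and 4.58 without MT3). Aif1, the macrophage protein Iba1, stood at 1.92, 8.49 and 4.46 CPM in FT against 0.755, 0.417 and 0.864 CPM in MT, again with no overlap, but at too low a level to meet the RPKM criterion (log2 fold change 3.07 ± 0.84 (SE), and 2.24 ± 0.81 without FT2).

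C1qa and C1qc, 2 chains of the complement component C1q that tissue macrophages secrete, met the criteria but overlapped between the groups. C1qa stood at 38.5, 18.1 and 60.4 CPM in FT1, FT2 and FT3 against 1.64, 2.50 and 31.5 CPM in MT1, MT2 and MT3. C1qc stood at 33.7, 18.7 and 68.7 CPM in FT against 1.51, 2.92 and 26.5 CPM in MT. For both, FT1 and FT3 were above all 3 MT libraries, and FT2 was below MT3. Both were higher in FT at an unadjusted p under 0.05 (log2 fold change 1.86 ± 0.82 (SE), 2.13 ± 0.91 without FT2 and 4.31 without MT3 for C1qa; log2 fold change 2.12 ± 0.81 (SE), 2.39 ± 0.89 without FT2, 1.51 without FT3 and 4.27 without MT3 for C1qc). MT3 was the highest MT library in these and in other macrophage genes: Lyz2, the macrophage lysozyme, stood at 95.6, 48.3 and 208 CPM in FT against 10.6, 8.34 and 83.6 CPM in MT (log2 fold change 1.92 ± 0.73 (SE), 2.23 ± 0.80 without FT2, 1.23 without FT3 and 3.71 without MT3). Csf1r, the receptor for the macrophage growth factor Csf1, stood at 45.5, 6.31 and 7.67 CPM in FT against 1.01, 2.22 and 28.03 CPM in MT, and the groups overlapped (log2 fold change 1.01 ± 1.11 (SE), 1.36 ± 1.27 without FT2, -0.29 without FT1 and 3.62 without MT3; unadjusted edgeR p 0.380, adjusted p 0.676). The median over the macrophage genes was 1.92, 1.10 and 2.56 (log2 difference from the MT mean) in FT1, FT2 and FT3 and -0.94, -0.37 and 1.48 in MT1, MT2 and MT3, so that MT3 lay above FT2. Genes of MHC class II presentation gave no call: of 6 tested none passed in either direction, and Cd74, the invariant chain, was highest in MT3 at 34.98, 29.2 and 67.3 CPM in FT against 2.64, 3.61 and 88.5 CPM in MT.

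Pf4, a platelet and macrophage chemokine, had the largest fold change of the macrophage genes. It stood at 4.25, 25.5 and 8.92 CPM in FT1, FT2 and FT3 against 0.252, 0.278 and 0.617 CPM in MT1, MT2 and MT3, which is 31, 117 and 64 reads against 2, 2 and 5. All FT libraries were above all MT libraries (log2 fold change 5.30 ± 0.98 (SE), and 4.09 ± 0.85 without FT2; unadjusted edgeR p 8.77e-05, adjusted p 0.255), with 2 of the 3 MT libraries at or under 3 reads.

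The stretches before the start of 3 myeloid genes are shown because each holds the letters of a core site of PU.1, the transcription factor that governs macrophage and neutrophil genes. The motif searched was GAGGAAGT, on both strands, in the 250 bases before each start in the RefSeq promoter table (build GRCm38.p6). Capitals mark the match, which here reads on the opposite strand in all 3 and is an ETS-family core as well. The genes were chosen after the search.
Pf4 (chr5:90772365-90772434, plus strand): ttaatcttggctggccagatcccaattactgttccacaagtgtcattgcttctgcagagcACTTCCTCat
C1qc (chr4:136893042-136893164, minus strand): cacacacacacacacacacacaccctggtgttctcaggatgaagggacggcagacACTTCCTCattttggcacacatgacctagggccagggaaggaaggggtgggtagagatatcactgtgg
S100a8 (chr3:90668839-90668966, plus strand): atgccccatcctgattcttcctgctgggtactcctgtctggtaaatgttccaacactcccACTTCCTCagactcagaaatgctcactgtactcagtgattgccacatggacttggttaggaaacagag
Among tested members with a promoter in that table, the motif occurred in 2 of 22 macrophage genes, 2 of 11 neutrophil granule genes and 0 of 20 satellite glia genes. It occurred in 2.61% of the 9424 autosomal genes tested that the table holds and in 2.79% of all its genes. A match of letters is not a bound site.

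Neutrophil granule genes gave calls in the same direction, beside 9.95% of all genes tested that were higher (3.83% without FT2). Of 13 tested, 5 were higher and 0 lower in FT at an unadjusted p under 0.05 and 8 passed in neither direction; without FT2, 5 were higher and 0 lower. Their median log2 fold change was 1.56 with all libraries and 1.97 without FT2. S100a8, a calcium-binding protein that fills neutrophil cytosol, stood at 48.7, 137 and 32.5 CPM in FT1, FT2 and FT3 against 3.14, 11.8 and 8.64 CPM in MT1, MT2 and MT3. Its partner S100a9 stood at 25.9, 39.6 and 11.9 CPM in FT against 1.64, 6.95 and 4.69 CPM in MT. Both were above the male range in every FT library (log2 fold change 3.49 ± 0.91 (SE), and 2.38 ± 0.86 without FT2 for S100a8; log2 fold change 2.77 ± 0.90 (SE), and 2.10 ± 0.92 without FT2 for S100a9). Camp, the granule antimicrobial peptide precursor, stood at 4.25, 8.27 and 3.07 CPM in FT against 0.377, 0.972 and 1.98 CPM in MT (log2 fold change 2.44 ± 0.83 (SE), 1.73 ± 0.81 without FT2 and 3.11 without MT3). The summed level of the 23 autosomal neutrophil genes was 264 to 365 CPM in FT and 62.1 to 186 CPM in MT, with no overlap. Lyz2 and Il1b, described with the macrophage and cytokine genes, enter this sum, and both are among the 5 calls. The lack of overlap is thus not one of granule genes alone. The sum was 365 CPM in FT3 and 141 CPM in MT2. With the Lyz2 and Il1b levels given in this report taken off, FT3 falls below MT2 and the groups overlap. Of 19 T, NK and B cell genes only 2 could be tested and 6 were at 0 in all 6 libraries.

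Chemokines and cytokines are secreted proteins that call in and instruct immune cells, and the list used here also holds the membrane protein Cmtm5. Of 47 tested, 14 (Pf4, Ptn and Cmtm5 among them) were higher in FT at an unadjusted p under 0.05 and 0 lower, with 33 that passed in neither direction. Without FT2, 19 were higher and 0 lower. The shares of all genes tested that were higher were 9.95% with FT2 and 3.83% without it. The list's median log2 difference from the MT mean was 0.88, -0.45 and 1.34 in FT1, FT2 and FT3. In MT1, MT2 and MT3 it was -0.20, -0.20 and 0.41, so that FT2 lay below all MT libraries. Il1b, the inflammatory cytokine interleukin-1 beta, stood at 33.5, 6.31 and 41.8 CPM in FT1, FT2 and FT3 against 2.39, 2.50 and 16.9 CPM in MT1, MT2 and MT3. FT2 lay within the male range and the other 2 FT libraries lay above it (log2 fold change 2.01 ± 0.80 (SE), 2.42 ± 0.81 without FT2 and 3.51 without MT3). Cxcl2, a neutrophil attractant, stood at 11.9, 37.7 and 13.5 CPM in FT against 1.38, 1.25 and 7.16 CPM in MT, with every FT library above MT (log2 fold change 2.96 ± 0.79 (SE), 2.00 ± 0.75 without FT2 and 4.21 without MT3). Ccl11, the eosinophil attractant eotaxin, stood at 4.39, 4.35 and 7.39 CPM in FT against 0.126, 0.278 and 1.11 CPM in MT. Its fold change was nearly the same with and without FT2 (log2 fold change 3.53 ± 0.77 (SE), 3.54 ± 0.80 without FT2 and 4.76 without MT3), at levels too low for the RPKM criterion with all libraries. Ccl12, a monocyte attractant, stood at 3.15, 15.7 and 4.46 CPM in FT against 0.126, 0.278 and 1.48 CPM in MT (log2 fold change 3.87 ± 1.00 (SE), 2.60 ± 0.90 without FT2 and 5.41 without MT3). Ccl11 and Ccl12 were near 0 in MT1 and MT2. Ptn, the growth factor pleiotrophin, stood at 86.8, 159 and 152 CPM in FT against 41.4, 42.9 and 61.9 CPM in MT (log2 fold change 1.66 ± 0.37 (SE), and 1.34 ± 0.32 without FT2; unadjusted edgeR p 4.89e-04, adjusted p 0.255). Mif, a cytokine that neurons make too, met the criteria only with FT2, at 77.1, 623 and 139 CPM in FT against 76.97, 71.5 and 64.8 CPM in MT (log2 fold change 2.30 ± 0.75 (SE), and 0.64 ± 0.55 without FT2). FT1 was level with MT1 and FT2 far above the rest.

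**Figure D2:**
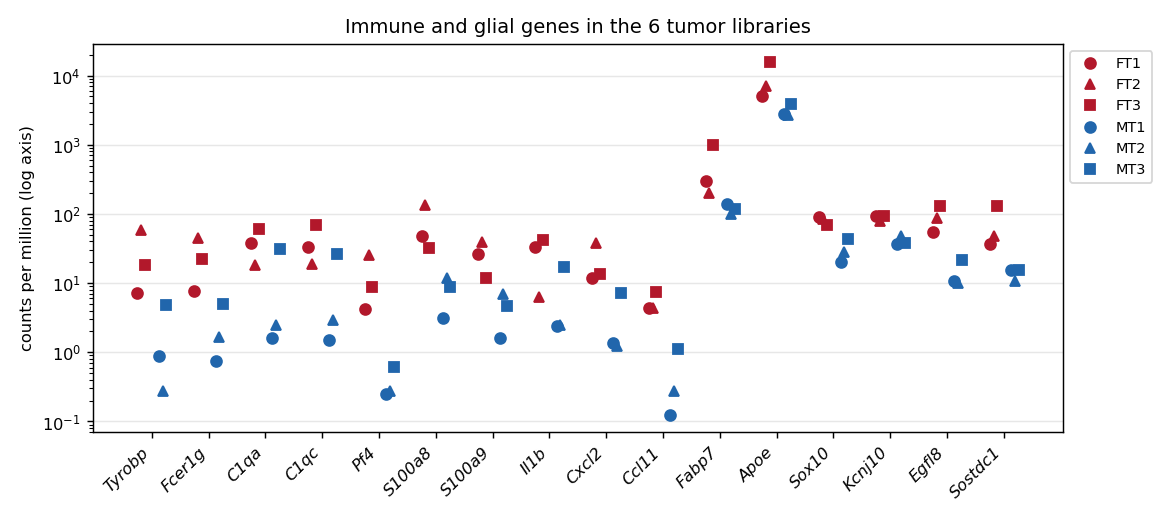
CPM on a log axis of 16 immune and glial genes in the 3 FT (red) and 3 MT (blue) libraries, 1 point a library. FT lies above MT with no overlap for genes such as Tyrobp, Ccl11, Sox10 and Kcnj10, whereas MT3 reaches the FT range for C1qa, C1qc and Il1b.

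Satellite glia gave more calls than any other cell type list with all libraries and as many as macrophages without FT2. Of 26 genes tested, 16 were higher and 0 lower in FT at an unadjusted p under 0.05 and 10 passed in neither direction; without FT2, 12 were higher and 0 lower. Among all genes tested, 9.95% were higher at that threshold, and 3.83% without FT2. In 12 satellite glia genes all FT libraries lay above all MT libraries, against 8.03% of all genes. The median log2 fold change was 1.09 with all libraries and 0.78 without FT2. Fabp7 (chr10:57504687-57508256 in mm9), a fatty acid binding protein of satellite glia, stood at 297, 198 and 1002 CPM in FT1, FT2 and FT3 against 141, 98.5 and 117 CPM in MT1, MT2 and MT3. FT3 was the highest, and the lowest FT library was above the highest MT library (log2 fold change 2.19 ± 0.49 (SE), 2.51 ± 0.45 without FT2 and 1.21 without FT3; unadjusted edgeR p 5.54e-04, adjusted p 0.255). Sox10, the transcription factor of the glial lineage, stood at 90.4, 84.3 and 68.5 CPM in FT against 20.4, 28.6 and 43.7 CPM in MT. The 3 FT libraries lay close together and above MT (log2 fold change 1.57 ± 0.36 (SE), and 1.38 ± 0.33 without FT2). Kcnj10 encodes Kir4.1, the potassium channel by which satellite glia take up potassium, and stood at 93.00, 79.9 and 93.6 CPM in FT against 37.2, 47.8 and 37.8 CPM in MT, again with close FT libraries and no overlap (log2 fold change 1.27 ± 0.39 (SE), and 1.21 ± 0.40 without FT2).

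Apoe, the lipid carrier made by glia and macrophages, was the most abundant satellite glia gene in these libraries at 5119, 7135 and 15893 CPM in FT1, FT2 and FT3 against 2774, 2729.6 and 3869.6 CPM in MT1, MT2 and MT3. FT was above MT in every library (log2 fold change 1.75 ± 0.51 (SE), and 1.81 ± 0.56 without FT2; unadjusted edgeR p 0.00392, adjusted p 0.321). Metrn, a secreted factor of glia, stood at 15.2, 65.5 and 28.7 CPM in FT against 5.03, 5.56 and 7.41 CPM in MT (log2 fold change 2.88 ± 0.58 (SE), and 1.92 ± 0.42 without FT2). Sox2, which marks satellite glia among ganglion cells, met the criteria only with FT2, at 3.29, 42.02 and 7.11 CPM in FT against 2.77, 1.53 and 3.21 CPM in MT (log2 fold change 3.13 ± 0.85 (SE), and 1.09 ± 0.54 without FT2). S100b, a calcium-binding protein of glia that some large neurons make as well, stood at 369.8, 3969 and 808 CPM in FT against 587, 578 and 304 CPM in MT, where FT1 lay between the MT libraries and FT2 far above the rest (log2 fold change 2.14 ± 0.77 (SE), and 0.30 ± 0.53 without FT2).

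Calls among Schwann cell genes also went in 1 direction, beside 9.95% of all genes tested that were higher (3.83% without FT2). Of 22 tested, 8 were higher and 0 lower in FT at an unadjusted p under 0.05 and 14 passed in neither direction; without FT2, 8 were higher and 0 lower. Their median log2 fold change was 0.77 with all libraries and 0.80 without FT2. By library the median log2 difference from the MT mean was 0.70, 0.05 and 1.12 in FT1, FT2 and FT3. It was -0.48, -0.08 and 0.54 in MT1, MT2 and MT3, so that FT2 lay below MT3. Sox10, described with satellite glia, is in this list too and among its calls. Mbp, a myelin protein, stood at 476, 218 and 1096 CPM in FT against 227, 305 and 584 CPM in MT, where FT2 was below MT1. Cryab, a small heat shock protein of Schwann cells and glia, stood at 115, 187 and 326 CPM in FT against 49.8, 56.8 and 78.9 CPM in MT (log2 fold change 1.94 ± 0.51 (SE), and 1.90 ± 0.55 without FT2).

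Fibroblast and vessel wall genes were mixed. Their counts stand against 9.95% of all genes tested higher and 2.09% lower (3.83% and 1.97% without FT2). Of 25 fibroblast genes, 6 were higher and 1 lower in FT at an unadjusted p under 0.05 and 18 passed in neither direction; without FT2, 5 were higher and 0 lower. Apod, a lipid-binding protein of nerve fibroblasts and Schwann cells, stood at 412, 339.9 and 769 CPM in FT against 138, 129.9 and 256 CPM in MT, above MT in every FT library (log2 fold change 1.69 ± 0.56 (SE), and 1.81 ± 0.62 without FT2). Dcn, the matrix proteoglycan decorin, stood at 111, 67.9 and 236 CPM in FT against 57.9, 54.9 and 84.8 CPM in MT, with FT2 inside the male range (log2 fold change 1.20 ± 0.48 (SE), 1.45 ± 0.48 without FT2 and 0.59 without FT3). Of 18 pericyte and smooth muscle genes, 7 were higher and 0 lower in FT at an unadjusted p under 0.05 and 11 passed in neither direction; without FT2, 6 were higher and 0 lower. Vtn, a pericyte-made matrix protein, stood at 22.4, 1.09 and 21.5 CPM in FT against 4.53, 1.67 and 2.96 CPM in MT. FT1 and FT3 were above and FT2 below all MT libraries, and the fold change grew without FT2 (log2 fold change 2.33 ± 0.72 (SE), and 2.85 ± 0.44 without FT2). Of 37 endothelial genes, 0 were higher and 1 lower in FT at an unadjusted p under 0.05 and 36 passed in neither direction; without FT2, 1 was higher and 0 lower. Pecam1, an endothelial adhesion molecule, stood at 101, 4.79 and 15.6 CPM in FT against 65.5, 113 and 152 CPM in MT, with the groups overlapping.

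**Figure D3:**
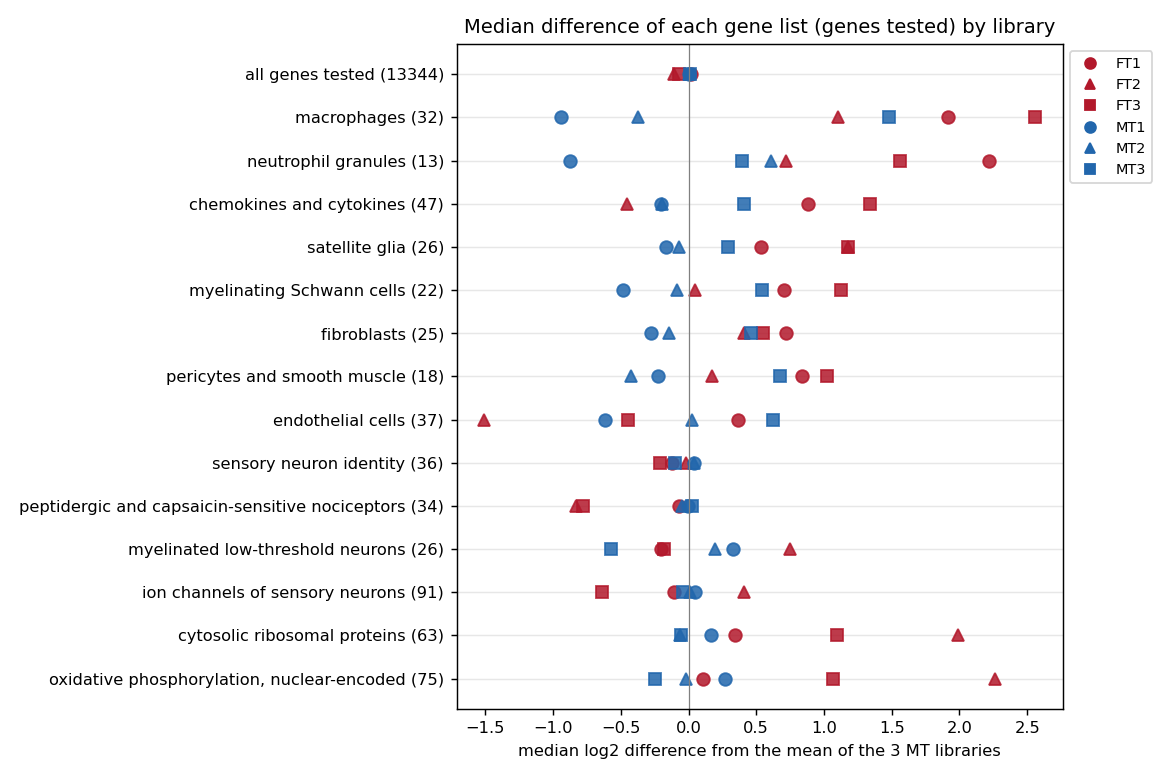
Median log2 difference of each gene list from the mean of the 3 MT libraries, 1 point for each FT (red) and MT (blue) library, with the number of genes tested in brackets. Satellite glia genes lay between 0.53 and 1.18 in FT and at or under 0.29 in MT, macrophage genes overlapped through MT3, and neuron identity genes stayed within 0.21 of the MT mean in all 6 libraries.

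The 3 genes with the lowest unadjusted p were Egfl8, Rdh5 and Sostdc1, which were named after their values were seen. Egfl8 (chr17:34750294-34752916 in mm9), a secreted EGF-like protein, stood at 55.4, 87.3 and 130.2 CPM in FT1, FT2 and FT3 against 10.8, 10.1 and 21.9 CPM in MT1, MT2 and MT3. FT was at least 2 times MT in every pair of libraries (log2 fold change 2.86 ± 0.49 (SE), and 2.76 ± 0.50 without FT2; unadjusted edgeR p 3.55e-05, adjusted p 0.238). Rdh5, a retinol dehydrogenase, stood at 18.9, 22.6 and 50.3 CPM in FT against 7.04, 6.11 and 5.06 CPM in MT (log2 fold change 2.48 ± 0.42 (SE), and 2.56 ± 0.41 without FT2). Sostdc1, a secreted inhibitor of BMP and Wnt signals, stood at 36.5, 48.8 and 129.8 CPM in FT against 15.3, 10.7 and 15.6 CPM in MT (log2 fold change 2.52 ± 0.45 (SE), 2.64 ± 0.45 without FT2 and 1.84 without FT3). In these genes FT3 was the highest library, and leaving out FT2 moved the fold change by less than its SE. Cmtm5, a membrane protein with a chemokine-like domain, showed the same order at 67.6, 103 and 149 CPM in FT against 20.5, 23.6 and 35.4 CPM in MT (log2 fold change 2.19 ± 0.43 (SE), and 2.09 ± 0.44 without FT2). Kcnn4, a calcium-activated potassium channel found in immune cells among others, stood at 24.01, 41.4 and 95.2 CPM in FT against 11.9, 9.86 and 13.2 CPM in MT, with no overlap (log2 fold change 2.37 ± 0.48 (SE), 2.42 ± 0.51 without FT2 and 1.73 without FT3; unadjusted edgeR p 2.12e-04, adjusted p 0.255).

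Genes that define the sorted neurons gave few calls. Of all genes tested, 9.95% were higher and 2.09% lower at an unadjusted p under 0.05 (3.83% and 1.97% without FT2). Without FT2 these shares are small, so a list without calls says little there. Of 36 sensory neuron identity genes, 1 was higher and 0 lower in FT at an unadjusted p under 0.05 and 35 passed in neither direction; without FT2, 0 were higher and 0 lower, and the median log2 fold change was 0.12 with all libraries and -0.22 without FT2. The gene called was Nefh, the heavy neurofilament of large myelinated neurons, at 726, 3134 and 498 CPM in FT1, FT2 and FT3 against 1020, 602 and 369.9 CPM in MT1, MT2 and MT3. FT2 was far above every other library, FT1 and FT3 lay within the male range, and the direction turned without FT2 (log2 fold change 1.43 ± 0.66 (SE), and -0.12 ± 0.44 without FT2). Of 34 nociceptor genes, 0 were higher and 1 lower in FT at an unadjusted p under 0.05 and 33 passed in neither direction; without FT2, 0 were higher and 0 lower. Their median log2 fold change was -0.41 with all libraries and -0.42 without FT2. Calca, the precursor of the pain peptide CGRP, stood at 4419, 3242 and 7157 CPM in FT against 4589, 3905 and 4160 CPM in MT. Trpv1, the capsaicin and heat receptor, stood at 263, 5.44 and 35.1 CPM in FT against 150.2, 188 and 260.4 CPM in MT. FT1 was just above the male range while FT2 and FT3 were below it, and the groups overlapped (log2 fold change -0.99 ± 0.94 (SE), -0.45 ± 0.89 without FT2 and -3.13 without FT1; unadjusted edgeR p 0.311, adjusted p 0.625). The nociceptor median was -0.07 in FT1, -0.83 in FT2 and -0.78 in FT3.

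Over all genes tested, 9.95% were higher and 2.09% lower in FT at an unadjusted p under 0.05 (3.83% and 1.97% without FT2). Of 91 ion channels of sensory neurons tested, 4 were higher and 4 lower at that threshold and 83 passed in neither direction. Without FT2, 1 was higher and 1 lower. Without overlap, 11 channel genes lay below MT and 3 above, against 9.61% and 8.03% of all genes. With FT2 left out, 22 lay below and 4 above (14.1% and 16.9% of all). P2rx3, the ATP-gated channel of nociceptors, stood at 497, 233 and 192 CPM in FT against 551, 595 and 567 CPM in MT. Its groups did not overlap but the fold change did not pass (log2 fold change -0.78 ± 0.40 (SE), and -0.74 ± 0.44 without FT2; unadjusted edgeR p 0.0727, adjusted p 0.433). Of 19 neuropeptide genes, 5 were higher and 0 lower in FT at an unadjusted p under 0.05 and 14 passed in neither direction; without FT2, 2 were higher and 0 lower. Cartpt, the precursor of the CART peptide, stood at 149, 495 and 200.2 CPM in FT against 70.4, 97.7 and 102 CPM in MT, above MT in all 3 FT libraries but most so in FT2 (log2 fold change 1.92 ± 0.57 (SE), and 0.99 ± 0.46 without FT2). Vgf, a granin-like peptide precursor that responds to growth factors, stood at 96.8, 373 and 102 CPM in FT against 106, 79.2 and 61.9 CPM in MT, where only FT2 left the male range (log2 fold change 1.50 ± 0.58 (SE), and 0.28 ± 0.39 without FT2). Of 37 axon injury genes, 3 were higher and 0 lower in FT at an unadjusted p under 0.05 and 34 passed in neither direction; without FT2, 2 were higher and 1 lower. Atf3, the injury-induced transcription factor, stood at 149.8, 202 and 308 CPM in FT against 184, 171 and 186 CPM in MT.

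In a second set of genes FT2 stood highest. Calls there stand beside 9.95% of all genes tested that were higher (3.83% without FT2). Of 75 nuclear genes of oxidative phosphorylation, 44 were higher and 0 lower in FT at an unadjusted p under 0.05, but 2 were higher without FT2. Their median log2 fold change was 1.53 with all libraries and 0.66 without FT2, and 18 lay above MT without overlap (8.03% of all genes), 21 without FT2 (16.9% of all). Of 63 ribosomal protein genes, 34 were higher and 0 lower at that threshold, and 1 was higher without FT2. Their median log2 fold change was 1.24 with all libraries and 0.75 without FT2, and 33 lay above MT without overlap, 39 without FT2. Medians of the log2 difference from the MT mean were 0.10, 2.26 and 1.07 in FT1, FT2 and FT3 for oxidative phosphorylation and 0.34, 1.99 and 1.10 for ribosomal proteins, so that FT3 was above MT as well. Ribosomal protein genes have many processed copies in the genome, so short reads can map to several places and be lost or split. Rps21, a small subunit protein, stood at 20.3, 189 and 27.6 CPM in FT against 15.6, 11.5 and 11.7 CPM in MT (log2 fold change 2.95 ± 0.84 (SE), and 0.91 ± 0.55 without FT2). Romo1, a mitochondrial membrane protein, stood at 116, 1839 and 173 CPM in FT1, FT2 and FT3 against 112, 82.4 and 70.1 CPM in MT1, MT2 and MT3 (log2 fold change 3.37 ± 0.94 (SE), and 0.74 ± 0.50 without FT2). Tmem160, a mitochondrial protein of little known function, stood at 112, 2598 and 185 CPM in FT against 98.5, 96.1 and 92.4 CPM in MT (log2 fold change 3.72 ± 1.04 (SE), and 0.67 ± 0.55 without FT2). In these 3 genes FT2 was many times every other library, FT3 was next, and FT1 was close to MT.

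Several of the largest fold changes of the comparison were of this kind. Cox7a1, a cytochrome oxidase subunit, stood at 0.823, 62.9 and 3.90 CPM in FT against 0.629, 0.695 and 0.741 CPM in MT (log2 fold change 5.38 ± 1.28 (SE), and 1.81 ± 0.76 without FT2). Nmt2, an enzyme that attaches myristate to proteins, stood at 17.4, 626 and 16.6 CPM in FT against 11.3, 11.5 and 10.00 CPM in MT (log2 fold change 4.73 ± 1.16 (SE), and 0.65 ± 0.26 without FT2). Fxyd1, a regulator of the sodium pump, stood at 72.6, 2078 and 149 CPM in FT against 33.1, 34.9 and 48.2 CPM in MT (log2 fold change 4.70 ± 1.12 (SE), and 1.57 ± 0.59 without FT2). FT2 held the highest value in each. Apoc1, an apolipoprotein of macrophages and glia, had the largest fold change that met the criteria, at 1.92, 61.8 and 5.996 CPM in FT against 0.126, 0.278 and 1.11 CPM in MT (log2 fold change 5.84 ± 1.30 (SE), 2.98 ± 0.93 without FT2 and 7.08 without MT3). Mt1 and Mt2, metallothioneins that bind zinc and answer stress, had FT2 highest too. Mt1 stood at 341, 3519.6 and 556 CPM in FT against 301, 329 and 261 CPM in MT (log2 fold change 2.66 ± 0.90 (SE), and 0.63 ± 0.69 without FT2). Mt2 stood at 82.6, 936 and 116 CPM in FT against 78.2, 96.8 and 62.8 CPM in MT (log2 fold change 2.61 ± 0.90 (SE), and 0.35 ± 0.64 without FT2).

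Exon length moved with these differences. The median union exon length was 1925 bases for genes higher in FT by the criteria, 3927 for those lower and 3747.5 for all genes tested. Without FT2 the medians were 2054 and 5538.5 bases. In the fifth of genes with the shortest exons the median log2 difference from the MT mean was 0.08 in FT1, 0.34 in FT2 and 0.91 in FT3. In the fifth with the longest it was -0.04, 0.36 and -0.49. FT3 was lower at longer exons, FT2 was high at both ends, and FT1 stayed near 0. The part of length in the gene differences above was not tested.

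**Figure D4:**
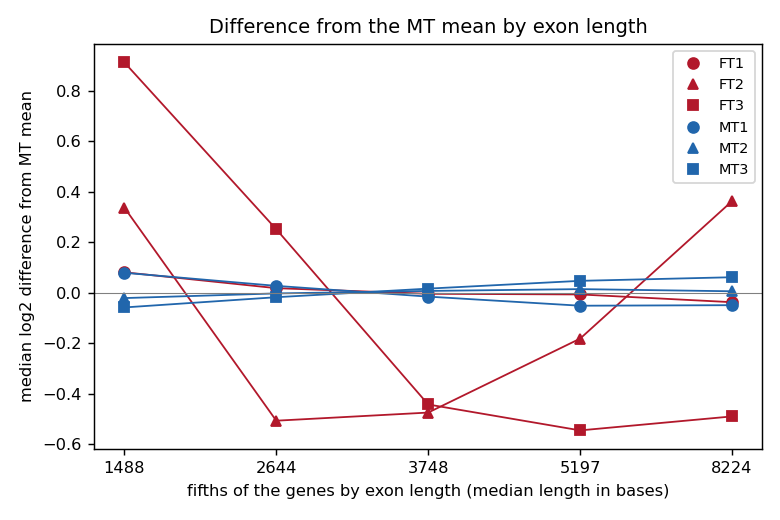
Median log2 difference from the MT mean in 5 equal groups of genes ordered by exon length, labelled by their median length in bases, 1 line a library. FT3 goes from 0.91 in the shortest to -0.49 in the longest group, FT2 from 0.34 through -0.51 to 0.36, and FT1 and the MT libraries stay near 0.

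By the criteria fewer genes were lower than higher in FT, and in those named here FT1 lay between the other FT libraries and MT. Ctgf, a matrix-associated growth factor that YAP induces, stood at 78.2, 1.31 and 20.1 CPM in FT1, FT2 and FT3 against 94.8, 114 and 205 CPM in MT1, MT2 and MT3. FT was below MT throughout, from just below MT1 in FT1 to nearly none in FT2 (log2 fold change -2.04 ± 0.87 (SE), -1.50 ± 0.73 without FT2 and -3.52 without FT1). Sgk1, a kinase induced by glucocorticoids, stood at 71.3, 22.2 and 32.1 CPM in FT against 112, 119 and 99.8 CPM in MT. It met the criteria with and without FT2 (log2 fold change -1.32 ± 0.44 (SE), and -1.10 ± 0.46 without FT2; unadjusted edgeR p 0.00924, adjusted p 0.330). Spock3, a matrix proteoglycan, stood at 129, 48.6 and 28.9 CPM in FT against 248, 225 and 196 CPM in MT and met them both ways as well (log2 fold change -1.61 ± 0.52 (SE), -1.53 ± 0.62 without FT2 and -2.24 without FT1). In both, FT1 was the FT library nearest to MT. Cav2, a membrane protein of caveolae, stood at 51.99, 12.4 and 16.04 CPM in FT against 98.6, 78.8 and 95.9 CPM in MT (log2 fold change -1.70 ± 0.60 (SE), -1.44 ± 0.69 without FT2 and -2.44 without FT1). Cd164, a sialomucin of the cell surface and lysosome, stood at 368, 58.4 and 225 CPM in FT against 651, 624 and 527 CPM in MT (log2 fold change -1.42 ± 0.54 (SE), and -1.02 ± 0.48 without FT2). Their FT2 and FT3 libraries were well below MT. Mfsd8, a lysosomal transporter, stood at 10.6, 0.218 and 4.74 CPM in FT against 18.4, 17.4 and 18.4 CPM in MT (log2 fold change -1.74 ± 0.67 (SE), -1.24 ± 0.46 without FT2 and -2.63 without FT1). Slc6a15, a neuronal amino acid transporter, stood at 140.1, 16.8 and 23.1 CPM in FT against 164, 165 and 185 CPM in MT, where FT1 was just below the lowest MT library (log2 fold change -1.49 ± 0.68 (SE), -1.10 ± 0.73 without FT2 and -2.87 without FT1).

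**Figure D5:**
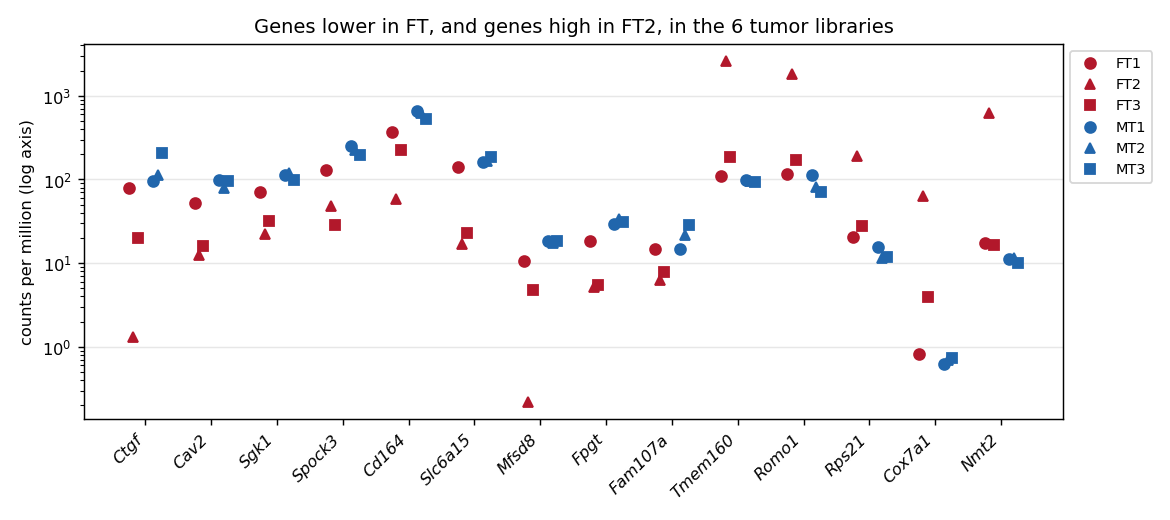
CPM on a log axis of 9 genes lower in FT and 5 genes with FT2 high, in the 3 FT (red) and 3 MT (blue) libraries, 1 point a library. Among the lower genes FT1 is the FT library nearest to MT, and Tmem160, Romo1, Rps21, Cox7a1 and Nmt2 have FT2 far above the rest.

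Counts in other lists stand against 9.95% of all genes higher and 2.09% lower at an unadjusted p under 0.05 (3.83% and 1.97% without FT2). Of 22 glucocorticoid response genes, 2 were higher and 4 lower in FT at an unadjusted p under 0.05 and 16 passed in neither direction; without FT2, 0 were higher and 1 lower. Those lower were Sgk1, Errfi1, Fam107a and Plin4, of which Sgk1 passed without FT2, and those higher were the metallothioneins Mt1 and Mt2. Of 35 interferon response genes, 4 were higher and 2 lower in FT at an unadjusted p under 0.05 and 29 passed in neither direction; without FT2, 2 were higher and 1 lower. Of 32 immediate early genes, 3 were higher and 0 lower in FT at an unadjusted p under 0.05 and 29 passed in neither direction; without FT2, 3 were higher and 0 lower. Of 16 sex hormone and prolactin related receptors, 2 were higher and 0 lower in FT at an unadjusted p under 0.05 and 14 passed in neither direction; without FT2, 0 were higher and 2 lower. Esr1, the estrogen receptor alpha, stood at 6.86, 1.31 and 0.697 CPM in FT against 7.04, 5.14 and 2.72 CPM in MT, and Prlr, the prolactin receptor, at 2.19, 3.70 and 2.09 CPM in FT against 4.02, 3.20 and 4.07 CPM in MT. Both overlapped between the groups.

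The same sex comparison in mice without tumor gives a side by side reading. FT and MT share no library with FN and MN. The difference of the sex differences, (FT minus MT) minus (FN minus MN), passed an adjusted p of 0.05 at no gene in edgeR, DESeq2 or limma-voom, with 199 genes (1.49%) at an unadjusted p under 0.05 in edgeR, 276 in DESeq2 and 638 in limma-voom, and a lowest adjusted p in edgeR of 0.9997. Of the genes with FT above MT without overlap, 26.9% also had FN above MN, against 9.66% of all genes tested. Of those with FT below MT, 25.1% had FN below MN, against 10.2% of all. FN2 stood apart among the normal libraries in its share of listed entries of reads mapped to several places (55.99%), as FT2 and FT3 did among the tumor libraries. Leaving out FT2 and FN2, FN lay above MN at 35.7% of the genes with FT above MT, against 23.2% of all tested. In the same libraries FN lay below MN at 25.7% of the genes with FT below MT, against 13.9% of all tested.

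Fcer1g, C1qa and Tyrobp were higher in females in both settings. Fcer1g gave a log2 fold change of 3.17 ± 0.85 (SE) for FN over MN, C1qa 3.62 ± 0.90 and Tyrobp 2.59 ± 0.92. Among glial genes Apoe gave 1.58 ± 0.51 for FN over MN and Sox10 1.06 ± 0.35. Fabp7 and Ptn, picked after their values were seen, were nearer to 0 there. Fabp7 gave 0.41 ± 0.47 and Ptn 0.27 ± 0.36. The difference between settings was 1.78 ± 0.68 for Fabp7 and 1.39 ± 0.51 for Ptn, neither past the adjusted threshold. The 5 genes with the lowest interaction p were 9230105E05Rik, Sst, Sprr1a, Ifi202b and Adcyap1r1. Sprr1a, a cornified envelope protein that injured neurons make, had the highest level of these, and its log2 fold change was 5.20 ± 0.96 (SE) for FN over MN and 1.04 ± 0.79 for FT over MT (unadjusted edgeR p of the difference 0.00332, adjusted p 0.9997). Without FT2 the Sprr1a value for FT over MT was 0.69.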

How the data were processed

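Libraries of total RNA from flow-sorted, tongue-labelled trigeminal neurons were prepared by SMART-seq2 and sequenced as single reads. Per the labels and the study's methods, the authors aligned reads to mm9 with TopHat2 and counted them per gene with HTSeq (CASAVA 1.8.2 and SAMtools are listed too). The deposited values are raw read counts per gene, 1 table a library. Rows that name no gene (reads mapped to several places, reads in no gene and the like) did not enter library sizes or tests. They hold 76.7 to 88.8% of the entries listed in the 6 tumor libraries, where a read mapped to several places may be listed more than once.

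Of 22609 symbols, 21627 matched GENCODE M1 (mm9) and 873 took only a chromosome from RefSeq. Genes were filtered with filterByExpr (minimum count 10, minimum total 15), and edgeR's quasi-likelihood test was fitted to all 12 libraries in 4 groups with TMM normalization, with Benjamini-Hochberg adjustment over the 13344 autosomal genes. Versions were R 4.3.3, edgeR 4.0.16, DESeq2 1.42.0, limma 3.58.1, pandas 2.3.3 and matplotlib 3.10.9. RPKM used union exon lengths, which 164 genes tested lack. Median differences by library are of log2 CPM with TMM sizes and a prior count of 2. The study used DESeq; DESeq2 and limma-voom with sample quality weights were alternatives, beside other normalizations, filters, a replicate block, a covariate for multiply mapped reads and leaving out libraries. The tests were checked on simulated data. No simulated library stood apart as FT2 and FT3 did, so the check does not cover that feature. Members and gene lists were chosen with earlier results of these data known. Genes named were the 12 largest changes each way among those that met the criteria without overlap, the 4 most abundant and the 4 of lowest p in each list, genes the study named and the 5 of lowest interaction p; Cxcl2, Kcnj10, Sox2, Egfl8, Sostdc1, Dcn, Cd164, Romo1 and Rdh5, with other members given for context, were chosen after their values were seen. Some genes that the rule names are not reported here. Labels do not say that pools share no litter, so p-values measure the spread between these pools.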

Additional observations from a re-analysis of the deposited data

Results flagged for a closer look

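Of 13344 autosomal genes tested, 8 had the 3 female libraries on one side of the 3 male libraries in the tumor mice and on the other side in the normal mice, without overlap in either. Sst and Adcyap1r1 among them were named by the rule for the interaction. Sst, the peptide somatostatin, stood at 6.58, 37.01 and 8.37 CPM in FT against 3.14, 3.47 and 5.56 CPM in MT, with every FT library above MT. In normal mice it stood at 5.28, 7.44 and 4.25 CPM in FN against 16.9, 7.85 and 14.2 CPM in MN, with every FN library below MN. The Sst log2 fold change FT over MT was 2.39 with all libraries and 0.91 without FT2. The difference of the sex differences was 3.44 ± 0.95 (SE) on the log2 scale (unadjusted edgeR p 0.00279, adjusted p 0.9997). Adcyap1r1, the receptor for the peptide PACAP, gave 3.87 ± 1.15 (SE; unadjusted edgeR p 0.00447, adjusted p 0.9997) at 1.37, 4.57 and 0.976 CPM in FT against 0.503, 0.834 and 0.247 CPM in MT. For Adcyap1r1 the log2 fold change FT over MT was 2.31 with all libraries and 1.15 without FT2. Neither difference of the sex differences passed the adjusted threshold, and in both genes FT2 was the highest FT library. No group had 4 or more libraries, so single libraries were not screened as outliers.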

How the results depend on the processing

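The number of genes that met the criteria, 1088 with all libraries, was 646 with FT1, FT3 and the 3 MT libraries alone, 1865 without FN2 and FT2, 60 with FT1 as the only FT library in a fit of 10 libraries (its spread is then taken from the other groups), 171 with a covariate for multiply mapped reads, and 437 to 2747 when each library was left out. The number with an adjusted p under 0.05 was 249 with DESeq2 and 0 to 754 when each library was left out, and 0 in edgeR and limma-voom under the other settings. The interaction gave 0 in every setting in which it could be fitted. Genes whose libraries did not overlap numbered 2355, and 2722 to 6165 when each tumor library was left out. Over the same genes, leaving out a library can only keep or raise this number, so the rise itself carries no information. Ending a call or turning a direction, the multiply mapped covariate gave a log2 fold change of -0.0445 for Mif, -0.38 for S100b, -0.0052 for Vgf, -0.23 for Nefh, -0.0033 for Tmem160, -0.16 for Mt1, -0.30 for Mt2, 0.23 for Trpv1 and -0.35 for Sprr1a. FT1 as the only FT library gave -0.48 for S100b, -0.008 for Mt2, 0.35 for Trpv1 and -0.59 for Sprr1a. For Csf1r it was -0.29 (without FT1) to 3.62 (without MT3) when each library was left out. For Nefh it was -0.12 in the 5 tumor libraries, -0.12 without FN2 and FT2, and -0.12 (without FT2) to 1.93 when each library was left out. The other genes named with a fold change kept their direction in all settings. The cause was not tested.

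Replicate numbers are shared between groups by label only. Deviations of same-numbered FT and MT libraries correlated at -0.25, 0.04 and 0.02, and no library correlated best with its own number there. With the replicate number as a block, 1150 genes met the criteria, 670 higher and 480 lower, 0 passed an adjusted p of 0.05 and the interaction gave 0. With 3 pools a group and FT2 at the lowest depth, depth limits most the genes of few reads.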

Other observations

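Scgb1a1, a secretoglobin of airway epithelium, was among the 12 largest rises without overlap at 3.84, 65.8 and 19.1 CPM in FT against 1.89, 2.36 and 1.36 CPM in MT (log2 fold change 4.30 ± 0.93 (SE), and 2.67 ± 0.74 without FT2), while of 20 epithelial and keratinocyte genes 3 could be tested and 5 were at 0 in all 6 tumor libraries. Crip1, a small LIM domain protein, stood at 159, 2620.4 and 313 CPM in FT against 76.3, 73.1 and 114 CPM in MT (log2 fold change 3.93 ± 0.92 (SE), and 1.48 ± 0.49 without FT2). S100 proteins and annexins, calcium-binding proteins of neurons, glia and immune cells, were higher at 10 of 20 genes tested and at 4 without FT2, with none lower. Over all genes tested, 9.95% were higher with FT2 and 3.83% without it. S100a8 and S100a9, counted among the neutrophil genes, are in this list too. Its median log2 difference from the MT mean was 0.04, 1.63 and 0.90 in FT1, FT2 and FT3 and -0.08 to 0.08 in MT, so that FT1 lay within the male range.

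GC content of the longest coding transcript moved with the comparison as well: the median log2 fold change was -0.09 in the fifth of genes lowest in GC and 0.27 in the fifth highest, and -0.24 and 0.17 without FT2. Its part in the gene differences was not tested.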
